A study of Mus musculus with 8 samples.

Results

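Macrophage nuclei of mouse liver were described from cluster 2 of a deposited single-nucleus RNA table. That table holds 13 clusters, numbered 0 to 12, each averaged once in a control pool and once in an MKO pool, so cluster 2 accounts for 2 of 26 columns. The members were chosen by the cluster number alone, with no expression threshold. Control mice were flox/flox, and the Tgfbr1 MKO mice were flox/flox with LysMcre, a knock-in of Cre recombinase at the lysozyme gene Lyz2 that is active in macrophages, monocytes and neutrophils. All mice of both genotypes had received a MASH diet for 30 weeks, a feeding model of metabolic dysfunction-associated steatohepatitis, and no chow-fed group was analysed here. Each nucleus column came from 1 pool of 3 frozen livers per genotype, whose nuclei were stained with propidium iodide, sorted and captured on the 10x Genomics system. Whole-liver RNA-seq covered 3 control and 3 MKO libraries. The control mice carry no Cre, so an effect of the Cre allele and an effect of the receptor deletion cannot be told apart. The labels give no age, sex or strain, nor whether the pooled livers were those of the bulk libraries.

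Kupffer cells are the resident macrophages of the hepatic sinusoid, where they clear particles, iron and dying cells from the blood. In steatohepatitis part of the resident population is lost and replaced from blood monocytes, and lipid-associated macrophages that carry Trem2, Gpnmb and matrix proteases gather at sites of damage. TGF-beta signals through a complex of its type II and type I receptors, the latter encoded by Tgfbr1, which phosphorylates Smad proteins that bind short CAGAC-type elements in DNA.

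The macrophage label was checked against 5 markers. Clec4f, Vsig4, Adgre1, Gpnmb and Mmp12 each had their highest level of all 13 clusters in cluster 2, in both pools. Levels are the authors' means per gene, scaled so that each column sums to 10000. Clec4f, a lectin restricted to Kupffer cells, stood at 6.91 in the control column and 7.11 in the MKO column. The next highest cluster for Clec4f was cluster 10, with 1.89 and 4.33. Adgre1, which encodes the F4/80 antigen, stood at 7.68 and 10.5, and Vsig4, a complement receptor of resident macrophages, at 6.35 and 5.64. Gpnmb, a glycoprotein of lipid-loaded macrophages, and Mmp12, the macrophage elastase, were the 2 markers whose levels were at least 2-fold lower in the MKO pool. The number of nuclei behind each mean was not given, so no interval could be set on any nucleus value. With 1 pool per genotype the 2 columns could be compared only by size and not tested. A mean also does not separate the level per nucleus from the share of nuclei in a subset of the cluster.

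The promoters of 6 genes past 2-fold, chosen after their values were seen, are shown as examples of both directions. Fcrl5, Negr1 and Fcgr4 were higher in the MKO nuclei, and Mef2c, Gpnmb and Mmp12 were lower. The sequences are from RefSeq on GRCm38.p6, run from 250 bases before to 50 bases after the annotated start, and read 5′ to 3′ on the strand of the gene. Capitals mark CAGAC, the core element bound by Smad3 and Smad4, or its reverse complement GTCTG.
Fcrl5 promoter, chr3:87435532-87435831, + strand: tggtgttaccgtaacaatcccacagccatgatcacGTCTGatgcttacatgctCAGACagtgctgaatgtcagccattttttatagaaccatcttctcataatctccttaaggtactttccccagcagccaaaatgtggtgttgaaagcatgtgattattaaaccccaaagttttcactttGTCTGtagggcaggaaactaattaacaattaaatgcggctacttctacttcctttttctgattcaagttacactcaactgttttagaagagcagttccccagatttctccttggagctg
Negr1 promoter, chr3:156561544-156561843, + strand: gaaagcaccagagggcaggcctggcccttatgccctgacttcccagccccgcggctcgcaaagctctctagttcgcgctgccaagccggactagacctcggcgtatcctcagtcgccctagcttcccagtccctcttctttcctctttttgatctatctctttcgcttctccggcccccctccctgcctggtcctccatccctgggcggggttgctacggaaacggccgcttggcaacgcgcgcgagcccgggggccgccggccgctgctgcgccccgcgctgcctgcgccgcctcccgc
Fcgr4 promoter, chr1:171018676-171018975, + strand: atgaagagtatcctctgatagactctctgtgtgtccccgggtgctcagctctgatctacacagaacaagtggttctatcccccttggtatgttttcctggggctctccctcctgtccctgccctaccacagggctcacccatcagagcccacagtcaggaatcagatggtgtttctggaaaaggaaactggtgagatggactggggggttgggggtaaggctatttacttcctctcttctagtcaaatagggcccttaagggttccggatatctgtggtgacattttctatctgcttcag
Mef2c promoter, chr13:83503784-83504083, + strand: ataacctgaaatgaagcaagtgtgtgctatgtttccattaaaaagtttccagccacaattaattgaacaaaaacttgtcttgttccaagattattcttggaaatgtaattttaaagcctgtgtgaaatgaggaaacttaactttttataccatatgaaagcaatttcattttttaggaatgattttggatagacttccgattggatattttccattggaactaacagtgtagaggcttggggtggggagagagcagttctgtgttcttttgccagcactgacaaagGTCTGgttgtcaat
Gpnmb promoter, chr6:49036268-49036567, + strand: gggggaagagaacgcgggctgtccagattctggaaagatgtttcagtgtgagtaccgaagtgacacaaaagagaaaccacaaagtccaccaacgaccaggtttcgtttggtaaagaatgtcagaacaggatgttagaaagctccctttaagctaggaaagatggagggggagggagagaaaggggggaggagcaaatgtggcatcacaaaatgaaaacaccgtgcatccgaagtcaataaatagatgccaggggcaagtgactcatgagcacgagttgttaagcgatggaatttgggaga
Mmp12 promoter, chr9:7344147-7344446, + strand: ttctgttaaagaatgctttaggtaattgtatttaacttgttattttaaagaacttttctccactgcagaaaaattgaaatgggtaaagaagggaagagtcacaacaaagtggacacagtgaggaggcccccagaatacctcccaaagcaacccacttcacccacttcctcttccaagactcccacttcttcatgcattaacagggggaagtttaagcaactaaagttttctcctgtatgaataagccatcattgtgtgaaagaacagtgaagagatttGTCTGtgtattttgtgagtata
The last bases of each window were looked for in GENCODE transcripts of the gene and found for all but Gpnmb, whose RefSeq start lies upstream of its GENCODE start. Fcrl5 held 3 copies of the core element, Mef2c and Mmp12 held 1 each, and none was found in the windows of Negr1, Fcgr4 and Gpnmb. The share of promoters with at least 1 copy on either strand was 39.5% of 81 genes higher in MKO nuclei and 43.3% of 67 genes lower. It was 42.4% of the 1500 promoters of genes past the level filter described next, and 49.7% of all 27025 promoters in the table. The element GAGGAA, a core bound by the macrophage factor PU.1, was found on either strand in 39.5% of the higher and 41.8% of the lower genes, against 30.7% of those past the filter. TGANTCA, an AP-1 site, was found in 11.1% and 11.9%, against 4.93%. CACGTG, an E-box of the MiT/TFE factors, was found in 9.88% of the higher genes and in 1 of 67 lower genes (1.49%), against 10.1%. None of these 4 motifs contains another, and a match in a window is a description of its letters only.

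Genes were compared between the pools where the larger of the 2 levels reached 1.44, which is the 90th percentile of that larger level over genes above 0 in cluster 2. The log2 ratio of MKO over control used a pseudocount of 0.144. Of 22578 genes listed, 1905 passed, and they held 65.3% of the summed level in the control column and 65.9% in the MKO column. A total of 96 genes (5.04%) were at least 2-fold higher in the MKO nuclei and 90 (4.72%) were at least 2-fold lower, with a median log2 ratio of -0.07. Because the filter used the larger level, genes near 0 in 1 pool could pass only through the other pool. With the filter on the mean of both pools, an alternative chosen after the data were seen, 59 genes were higher and 70 lower. Rpl19 (log2 ratio 1.01) lay just inside the higher threshold and Themis2 (0.98) just outside. Ehbp1 lay just inside the lower threshold, at levels of 1.45 and 0.651, and Fmn1 just outside, at 10.7 and 5.30.

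**Figure D1:**
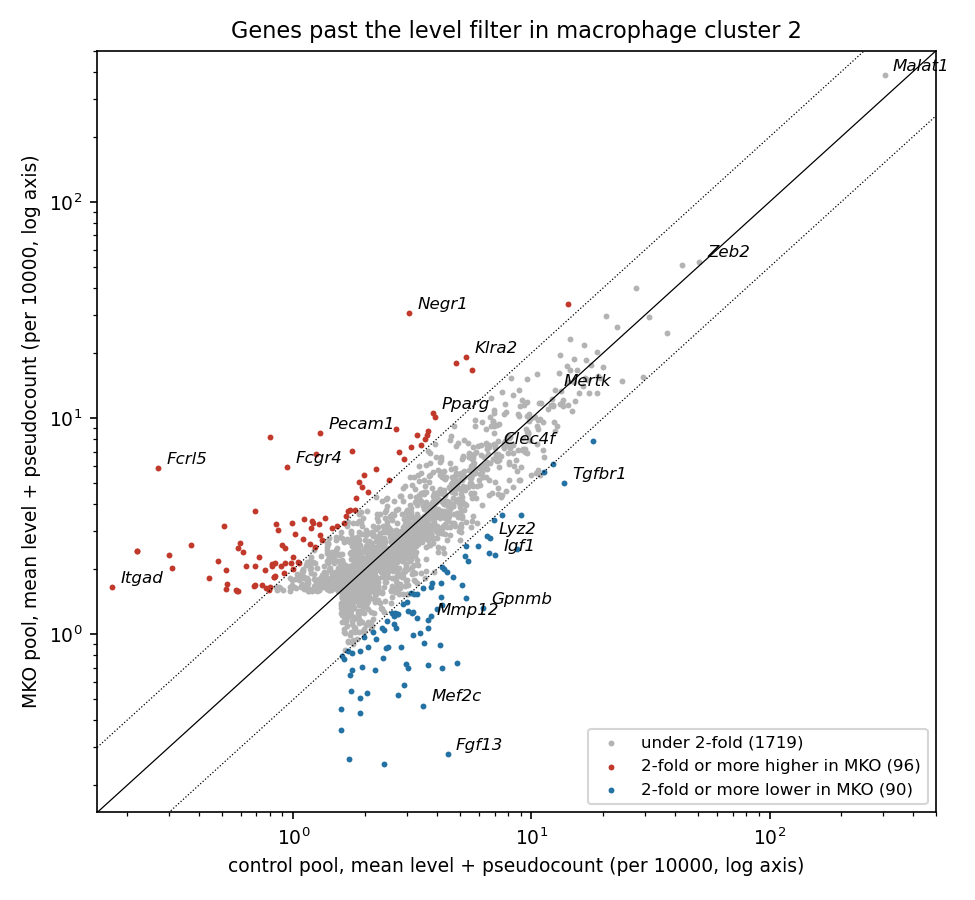
Mean level of each of the 1905 genes past the filter in cluster 2, control pool on the horizontal axis and MKO pool on the vertical axis, both per 10000 plus the pseudocount on log axes; the solid line marks equal levels and the dotted lines 2-fold. The 96 red points lie 2-fold or more above the diagonal and the 90 blue points 2-fold or more below it, with Negr1 and Fcrl5 far above and Fgf13 and Mef2c far below.

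Whole-liver libraries were read beside the nuclei and tested with limma on log2(value + 1). Over all 15249 genes 452 rose (2.96%) and 13 fell (0.0853%). Libraries held 17448117 to 23986319 recovered reads. The labels number the 3 libraries of a genotype without naming animals. The p-values therefore rest on the spread among these libraries, which may be technical. In whole liver, more cells of a type and more RNA per cell cannot be told apart. Markers of other leukocytes moved too: 4 of 13 T and NK, 3 of 12 dendritic and 1 of 4 neutrophil genes rose, and 1 of 10 B and plasma cell genes fell. The T and NK genes had a median log2 fold change of 1.40, with 10 of 13 higher at an unadjusted p under 0.05 and 0 to 3 that rose with 1 library left out. Their part in the bulk values of the macrophage lists was not tested. On the second principal component of these libraries MKO 1 lay at 48.5 and the other 5 between -23.0 and 4.67.

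Tgfbr1, the targeted gene (chromosome 4, 47353222 to 47414931, + strand, mm10), stood at 13.5 in the control macrophage nuclei and 4.87 in the MKO nuclei, a log2 ratio of -1.45. The control value was the highest of the 13 clusters. In the other 12 clusters Tgfbr1 ranged from 0.699 to 10.3 in the control pool and from 0.587 to 6.98 in the MKO pool. Of the 7 of these in which it passed the filter, none differed 2-fold, with log2 ratios from -0.70 to 0.42. In whole liver Tgfbr1 was read at 737, 810 and 777 normalised counts in the control libraries and at 560, 857 and 735 in the MKO libraries. The genotypes overlapped (log2 fold change -0.13 ± 0.16, SE; limma adjusted p = 0.816). The labels do not name the floxed exon, and levels over the whole gene do not measure the deletion itself.

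Listed genes of the TGF-beta pathway, Tgfbr1 among them, were more often lower than higher in the MKO nuclei. Of 25 listed members 11 passed the filter, 2 were at least 2-fold lower and none was 2-fold higher. The median log2 ratio was -0.27, against -0.07 for all genes past the filter. Counting members below the filter too, 18 of 25 were lower and 7 higher, some of them near 0, such as Tgfb2 (0.042 and 0.0318). Here and for each list below, the share of all genes in each direction is not given, so such direction counts describe the members only. Besides Tgfbr1, the member past 2-fold was Ski, a co-repressor that restrains Smad activity, at 1.76 and 0.693 (log2 ratio -1.18). Its relative Skil stood at 3.17 and 2.07. The type II receptor Tgfbr2 stood at 3.22 and 2.63, and Itgav, an integrin chain that helps release TGF-beta from its latent form, at 7.65 and 4.47. The inhibitory Smad7 differed little, at 1.63 and 1.47. The Smad target Pmepa1 lay below the filter at 0.223 and 0.027, and so did the co-receptor gene Tgfbr3, which was higher at 0.231 and 1.16 (log2 ratio 1.80). The ligand Tgfb1 stood at 1.73 and 1.93, and Nrros, which tethers latent TGF-beta on myeloid cells, at 2.16 and 2.28. In bulk liver 3 of the 25 members rose, but 1 without control 2, MKO 2 or MKO 3 and 2 without control 3. None fell with limma, edgeR or DESeq2 or at an unadjusted p under 0.05, which also held for each list below said to have no member that fell, unless stated. Among them were Nrros (log2 fold change 1.52, limma adjusted p = 0.00509) and Tgfb1 (0.98, adjusted p = 0.0315), whose call needed each of control 2, control 3, MKO 2 and MKO 3 (adjusted p up to 0.141 when 1 was left out).

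Among the genes that stood highest in MKO macrophage nuclei over control were receptors of the immunoglobulin and lectin families and adhesion molecules. Fcrl5, an Fc receptor-like protein known from B cells (chromosome 3, 87435773 to 87500678, + strand), stood at 0.127 in the control and 5.71 in the MKO nuclei, a log2 ratio of 4.44 and the highest of the 1905. In the whole-liver libraries it was read at 3.26, 4.20 and 0 in control libraries and 70.8, 84.6 and 135 in the MKO ones. The groups did not overlap, and the log2 fold change was 5.07 ± 0.62 (limma adjusted p = 0.00502).

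Negr1, a GPI-anchored adhesion molecule known from neurons (chromosome 3, 156561794 to 157316445, + strand), stood at 2.92 and 30.3 in the nuclei. In whole liver it was close to absent from controls, at 2.17, 0 and 1.97, and reached 33.0, 48.95 and 45.3 in MKO libraries (log2 fold change 4.34 ± 0.54, limma adjusted p = 0.00502). Fcgr4, an IgG receptor that activates phagocytes (chromosome 1, 171018920 to 171029761, + strand), stood at 0.799 and 5.77 in the nuclei. The liver libraries gave 93.4, 87.1 and 44.4 for the 3 controls, against 893, 1106 and 1486 for the 3 MKO libraries (3.98 ± 0.30, adjusted p = 0.00186). For both genes each MKO library lay above each control library.

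Across 24 listed Fc and other myeloid receptors, 23 were in the nucleus table, 20 were higher in the MKO nuclei and 3 lower. Of the 18 past the filter 11 were at least 2-fold higher and none 2-fold lower, with a median log2 ratio of 1.20 against -0.07 for all genes past the filter. Of these 18 members 10 passed through the MKO pool alone, so this median leans to higher genes, and without the filter, an alternative chosen after the data were seen, the median of the 23 was 0.97. Their summed level went from 46.2 to 83.1. Cd300e, a receptor of patrolling-type monocytes, stood at 0.229 and 2.46. Fcer1g, the signalling chain shared by Fc receptors, stood at 3.15 and 8.24 and Clec4a3, a lectin receptor, at 1.62 and 6.87. The related receptors Sirpb1a, Sirpb1b and Sirpb1c all lay past 2-fold, with log2 ratios of 1.38 to 1.62, and reads may be split uncertainly among these near-identical genes. The inhibitory receptors Sirpa (11.6 and 10.9) and Lilrb4a (6.83 and 7.44) differed little, while the inhibitory receptors Pirb (1.55 and 3.17) and Fcgr2b (0.827 and 0.347, below the filter) differed by close to 2-fold in opposite directions. Trem2, a lipid receptor, went the other way below the filter, at 0.809 and 0.0829. In bulk 20 of the 24 rose and 1, Trem2, fell, and the median log2 fold change was 2.08.

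Adhesion molecules and integrins as a list were not shifted in 1 direction. Of 18 members 14 passed the filter, 2 were 2-fold higher, 1 was 2-fold lower, and the median log2 ratio was 0.07. Itgad, the alpha D chain that pairs with beta 2 integrin, stood at 0.0295 and 1.5 and rose in bulk by a log2 fold change of 4.34 (limma adjusted p = 0.00179). Alcam, a ligand of CD6 on T cells, was lower, at 8.58 and 2.33. Itgal, the LFA-1 alpha chain, stood at 3.41 and 3.38 in the nuclei. Its bulk log2 fold change was 1.73 (limma adjusted p = 0.00785; 0.0515 without MKO 2). In bulk 9 of the 18 rose and none fell, with 4 that rose without MKO 2 and 5 without control 2.

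Monocyte genes lay on both sides of equal levels. Of 20 members 10 were higher and 10 lower in the MKO nuclei, and of the 7 past the filter 4 were at least 2-fold higher and none 2-fold lower (median log2 ratio 1.05). Of the 7, 3 passed through the MKO pool alone, and without the filter the median of the 20 was 0.12. Adgre4, an adhesion receptor related to F4/80, stood at 4.68 and 17.8 in the nuclei. In bulk it was read at 144, 66.1 and 40.4 (control), then 535, 647 and 744 (MKO libraries; log2 fold change 3.11 ± 0.39, limma adjusted p = 0.00509). Treml4, a receptor found on patrolling-type monocytes, stood at 0.901 and 2.03. The chemokine receptors that mark monocytes and their recent progeny lay below the filter and were lower. Ccr2 stood at 1.39 and 0.343 and Cx3cr1 at 1.32 and 0.192. In bulk Cx3cr1 fell from 55.4, 71.4 and 80.8 to 7.32, 17.3 and 10.6 (log2 fold change -2.52 ± 0.35, limma adjusted p = 0.00691), without overlap. Ccr2 did not pass the test (46.7, 66.1 and 54.2 against 41.5, 86.7 and 57.8, log2 fold change 0.10, adjusted p = 0.931). The list's bulk count was 9 that rose and 1 that fell, with 4 that rose without MKO 2.

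Further genes among the 15 with the highest nucleus ratios were of several kinds. Ccnd2, a D-type cyclin, stood at 0.157 and 2.18, and its bulk log2 fold change was 1.63 (limma adjusted p = 0.00345). Pdcd1lg2, which encodes the checkpoint ligand PD-L2, stood at 0.166 and 1.89 (bulk 4.16, adjusted p = 0.00649; 0.0569 without MKO 3). Grap2, Asb2 and Fpr1, an adaptor, a ubiquitin ligase subunit and the formyl peptide receptor, had nucleus log2 ratios of 2.42, 2.18 and 2.15. All 3 rose in bulk, by log2 fold changes of 2.31, 2.64 and 3.07, and Fpr1 lost its call without MKO 2 or MKO 3 (adjusted p up to 0.065). Sox5, a transcription factor (1.10 and 6.67), and St6galnac3, a sialyltransferase (0.367 and 3.02), did not pass the bulk test (log2 fold changes 0.04 and 0.47, adjusted p 0.961 and 0.65). Ccser1 and Clec2g (log2 ratios 3.47 and 3.46) were not analysed in bulk. Klra2, a lectin-like receptor that the rule took for its enrichment in cluster 2, stood at 5.17 and 19.0. In bulk it was read at 57.6, 47.2 and 32.5 in the control libraries and 227, 214 and 284 in the MKO libraries (2.40 ± 0.24, adjusted p = 0.00345).

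Pecam1, an adhesion molecule of endothelium and of some myeloid cells, stood at 1.15 and 8.36 in the macrophage nuclei. In the MKO column it is the member of the endothelial list with the highest level. The other 11 endothelial markers all lay below the filter. Among them Kdr stood at 0.0932 and 0.0726, Lyve1 at 0.00556 and 0.00831, Tek at 0.0312 and 0.014 and Stab2 at 1.26 and 1.18. In bulk Pecam1 was read at 299.7, 254 and 209.9 in control libraries and 432, 478 and 584 in the MKO ones (log2 fold change 0.97 ± 0.17, limma adjusted p = 0.0202). Leaving out any 1 of control 2, control 3, MKO 2 and MKO 3 ended that call (up to 0.0858).

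**Figure D2:**
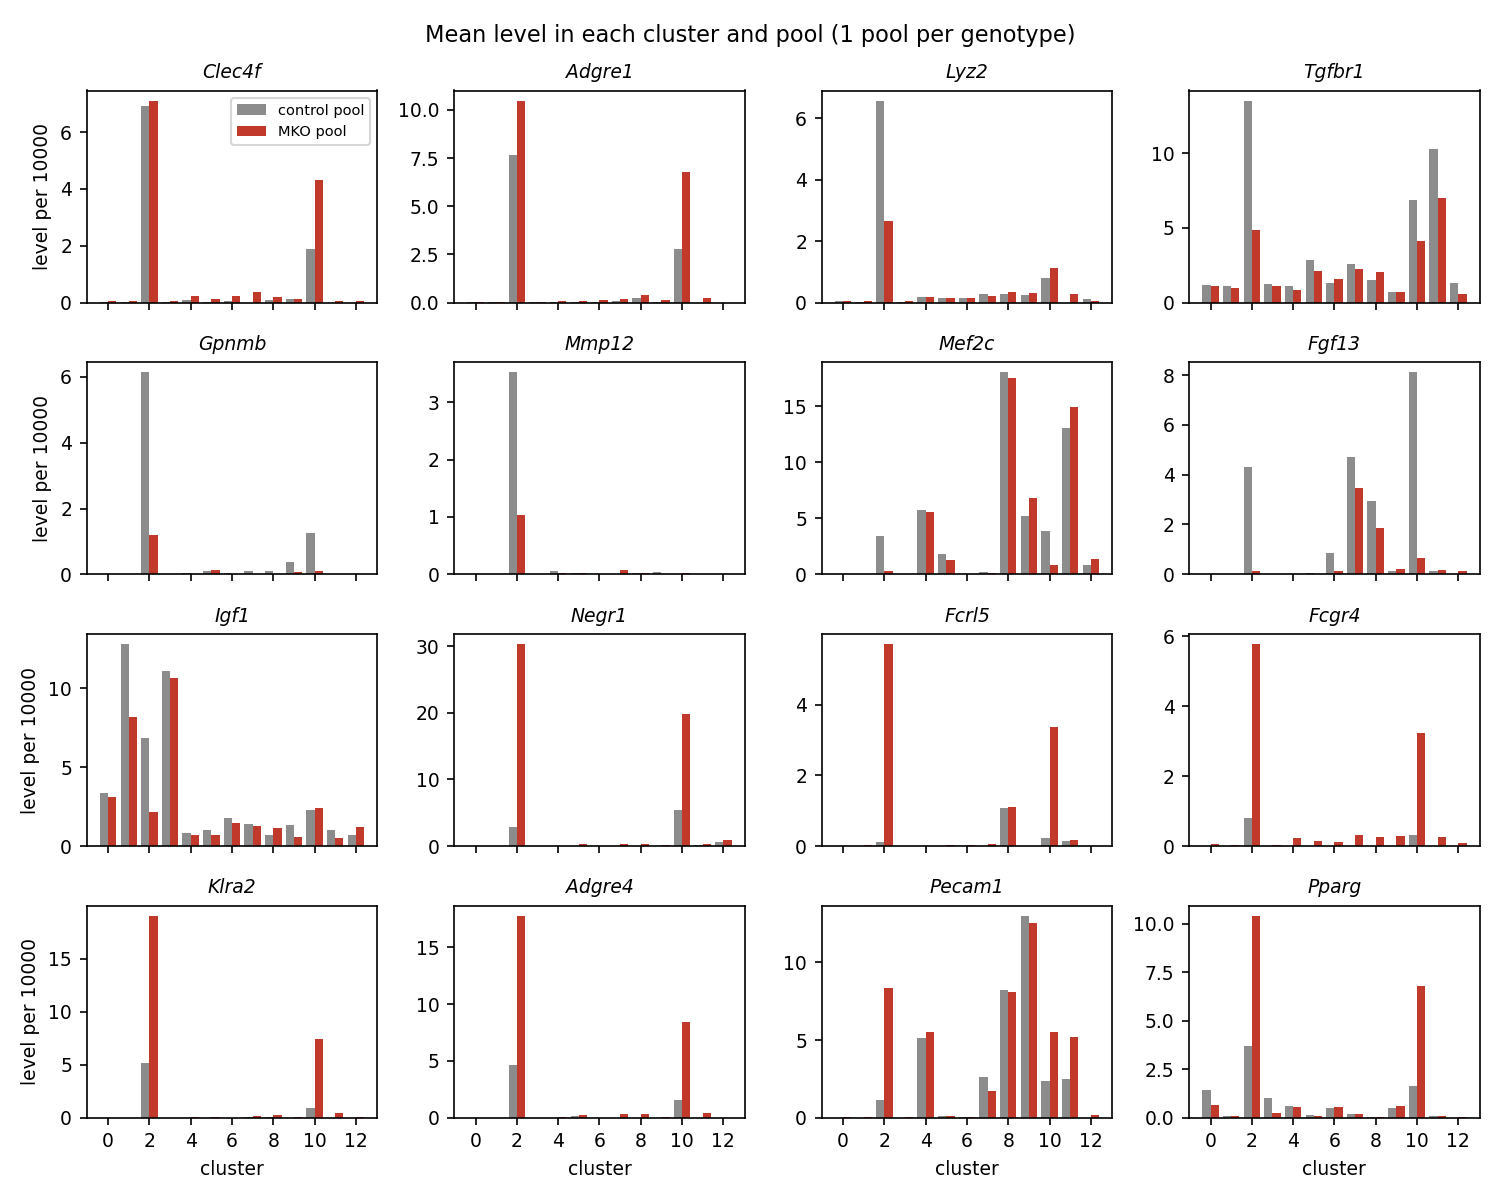
Mean level per 10000 (vertical axes, linear, from 0) of 16 genes in each of the 13 clusters (horizontal axes), with grey bars for the control pool and red bars for the MKO pool, 1 pool each and no error. Clec4f and Adgre1 are highest in cluster 2 in both pools, Gpnmb and Mmp12 are highest in cluster 2 of the control pool, and Negr1, Fcrl5, Fcgr4, Klra2 and Adgre4 highest in cluster 2 of the MKO pool.

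Genes at the lower end included a fibroblast growth factor homologue, a myeloid transcription factor and lipid-associated macrophage genes. Fgf13, an intracellular FGF homologue, stood at 4.30 and 0.137 (log2 ratio -3.99) and was not analysed in bulk. Mef2c, a MADS-box transcription factor (chromosome 13, 83504034 to 83667080, + strand), stood at 3.37 and 0.325. In whole liver Mef2c was read at 80.4, 75.6 and 88.7 for the 3 controls, against 98.9, 90.8 and 55.9 for the 3 MKO libraries, and the groups overlapped (log2 fold change -0.03, limma adjusted p = 0.977). Other clusters carried more Mef2c than the macrophages did, up to 18.0 (control) and 17.5 (MKO) in cluster 8. Apbb2, Nav2, Pcdh7, Myo5a, Blnk, Ldlrad4 and Arhgap6 had nucleus log2 ratios between -3.27 and -2.32. None of the 14 genes with the lowest ratios that were tested in bulk was called there with limma or edgeR. DESeq2 called 1 lower, 2 were lower at an unadjusted p under 0.05, and Gpnmb lay nearest to the threshold.

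Lipid-associated macrophage genes were lower in most cases. Of 20 members 16 were lower and 4 higher, and of the 12 past the filter 3 were at least 2-fold lower and none 2-fold higher (median log2 ratio -0.35). Of the 12, 3 passed through the control pool alone, the same 3 that lay 2-fold lower, and 1 through the MKO pool alone. Without the filter the median of the 20 was -0.42. Gpnmb (chromosome 6, 49036546 to 49070929, + strand) stood at 6.14 and 1.18. Its bulk values were 205, 159 and 292 (control), then 39.1, 54.0 and 114 (MKO). The groups did not overlap, and the log2 fold change of -1.75 ± 0.38 narrowly missed the threshold (limma adjusted p = 0.0501), which it passed with DESeq2, TMM scaling, a pseudocount of 4, a replicate block or without MKO 3. Mmp12 (chromosome 9, 7344381 to 7369499, + strand) stood at 3.52 and 1.03. In bulk it was read at 228, 176 and 127 in the control libraries and 75.7, 96.9 and 91.5 in the MKO libraries (-0.97 ± 0.23, adjusted p = 0.0719). Mmp12 passed with DESeq2 or without control 3. Atp6v0d2, a subunit of the proton pump, was the third (2.69 and 0.73), and did not pass the bulk test (0.09, adjusted p = 0.95). Apoe (42.7 and 50.9) and the lipid droplet coat gene Plin2 (3.52 and 3.78) were not lower.

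Trem2, below the filter in the nuclei, fell in bulk from 58.6, 79.8 and 75.9 to 12.2, 20.4 and 12.5 (log2 fold change -2.20 ± 0.29, limma adjusted p = 0.00604). Every MKO library lay below every control library. Of the 20 genes of the list 2 rose and 1 fell in bulk, with a median log2 fold change of -0.04. Without control 3 these were 1 and 2, without MKO 3 they were 0 and 2, and without control 2 or MKO 2 they were 1 and 1.

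Genes for fibrosis mediators were the list with the lowest median in these nuclei. Of 20 members 17 were lower, 2 higher and 1 at 0 in both pools, and the summed level went from 25.6 to 11.6. Of the 6 past the filter 4 were at least 2-fold lower (median log2 ratio -1.32). Of the 6, 3 passed through the control pool alone, and without the filter the median of the 20 was -0.51. Besides Mmp12 these were Igf1, a growth factor of repair macrophages that hepatocytes also make (6.88 and 2.19), Pdgfc, a mitogen for stellate cells (4.03 and 1.34), and Fn1, which encodes fibronectin (2.22 and 0.931). Spp1, osteopontin, lay below the filter at 1.13 and 0.452. In bulk 2 of 19 rose, but 0 without control 2, control 3, MKO 2 or MKO 3. None fell with limma on all libraries or with edgeR, 1 fell with DESeq2 or without control 3, and 3 were lower at an unadjusted p under 0.05. Igf1, Pdgfc and Fn1 did not pass the test (limma adjusted p from 0.771 to 0.942).

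Lysosomal and lipid-clearance genes were lower more often than higher. Of 22 lysosomal genes 18 were lower and 4 higher, and their sum went from 75.7 to 59.6. Those past 2-fold included Atp6v0d2 and Mitf, a transcription factor that drives lysosomal genes (12.2 and 5.98). Ctsb (9.71 and 7.81) and Ctss (7.87 and 7.91), both cathepsins, differed by less. Of 25 genes for uptake of dying cells and cholesterol handling 17 were lower and 8 higher, with the sum at 104 and 79.0. Stab1, a scavenger receptor (1.61 and 0.404), Dock1, an engulfment factor (2.96 and 1.40), and Abca1, a cholesterol exporter (11.2 and 5.49), lay past 2-fold. Mertk, the receptor that binds dying cells, did not share this (12.4 and 13.4), nor did Abcg1 (2.27 and 2.50). In bulk 1 of the 22 and 8 of the 25 rose, and none fell. Without MKO 2 or MKO 3 these were 0 and 2, without control 2 they were 0 and 3, and without control 3 they were 0 and 4. Without MKO 1 they were 1 and 5.

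Lyz2, the lysozyme gene whose locus carries the Cre of the MKO mice (chromosome 10, 117277331 to 117282321, - strand), stood at 6.58 and 2.65 in the macrophage nuclei, a log2 ratio of -1.27. In whole liver it was read at 1596, 1042 and 1033 in control libraries and 539.5, 957 and 1320.4 in the MKO ones. The groups overlapped (log2 fold change -0.44 ± 0.31, limma adjusted p = 0.651). The part of the Cre insertion at this locus in the Lyz2 levels was not tested.

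Lyz2 is 1 of 20 general macrophage genes, of which 15 were higher and 5 lower in the MKO nuclei. Of 16 past the filter 2 were 2-fold higher and 1, Lyz2, 2-fold lower (median log2 ratio 0.11). The 2 higher members were Fcer1g and Tyrobp, the signalling adaptor of Trem2 and related receptors (1.92 and 4.41). Csf1r, which binds the growth factor M-CSF, stood at 4.02 and 4.36. In bulk 13 of the 20 rose and none fell, with a median log2 fold change of 1.25. The count that rose was 5 without control 2, MKO 2 or MKO 3. Adgre1 was read at 199.8, 129 and 96.6 for the 3 controls, against 291, 598 and 639 for the 3 MKO libraries (1.82 ± 0.34, limma adjusted p = 0.0261). Leaving out control 2, control 3, MKO 2 or MKO 3 ended the Adgre1 call (up to 0.128). Csf1r was read at 696, 493 and 414 (control), then 1340.1, 2035 and 1996 (MKO libraries; 1.75 ± 0.22, adjusted p = 0.00516), and its call held whichever library was left out.

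Kupffer cell identity genes were more often higher than lower in the MKO nuclei. Of 20 members 16 were higher and 4 lower, the sum went from 59.4 to 74.5, and of 12 past the filter 1 was 2-fold higher (median log2 ratio 0.36). That member was Cd163, the scavenger receptor for haemoglobin (1.03 and 2.46). Of the 12, 3 passed through the MKO pool alone, Cd163 among them, and without the filter the median of the 20 was 0.36. The share 2-fold higher was 5.04% over all genes past the filter. Cd5l, a secreted protein of resident macrophages (9.46 and 11.8), and Timd4, a receptor for phosphatidylserine (1.85 and 2.25), differed by less. In bulk 6 of the 20 rose and none fell. Leaving out control 2, MKO 1, MKO 2 or MKO 3 gave 2, 3, 0 or 1 that rose, and leaving out control 1 gave 10. Clec4f was read at 1437, 955 and 443 in the control libraries and 2579, 2721 and 2195 in the MKO libraries. Its groups did not overlap, but it did not pass the test (log2 fold change 1.55 ± 0.36, limma adjusted p = 0.0633). It passed with DESeq2, with a replicate block, and without control 1 or control 3.

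**Figure D3:**
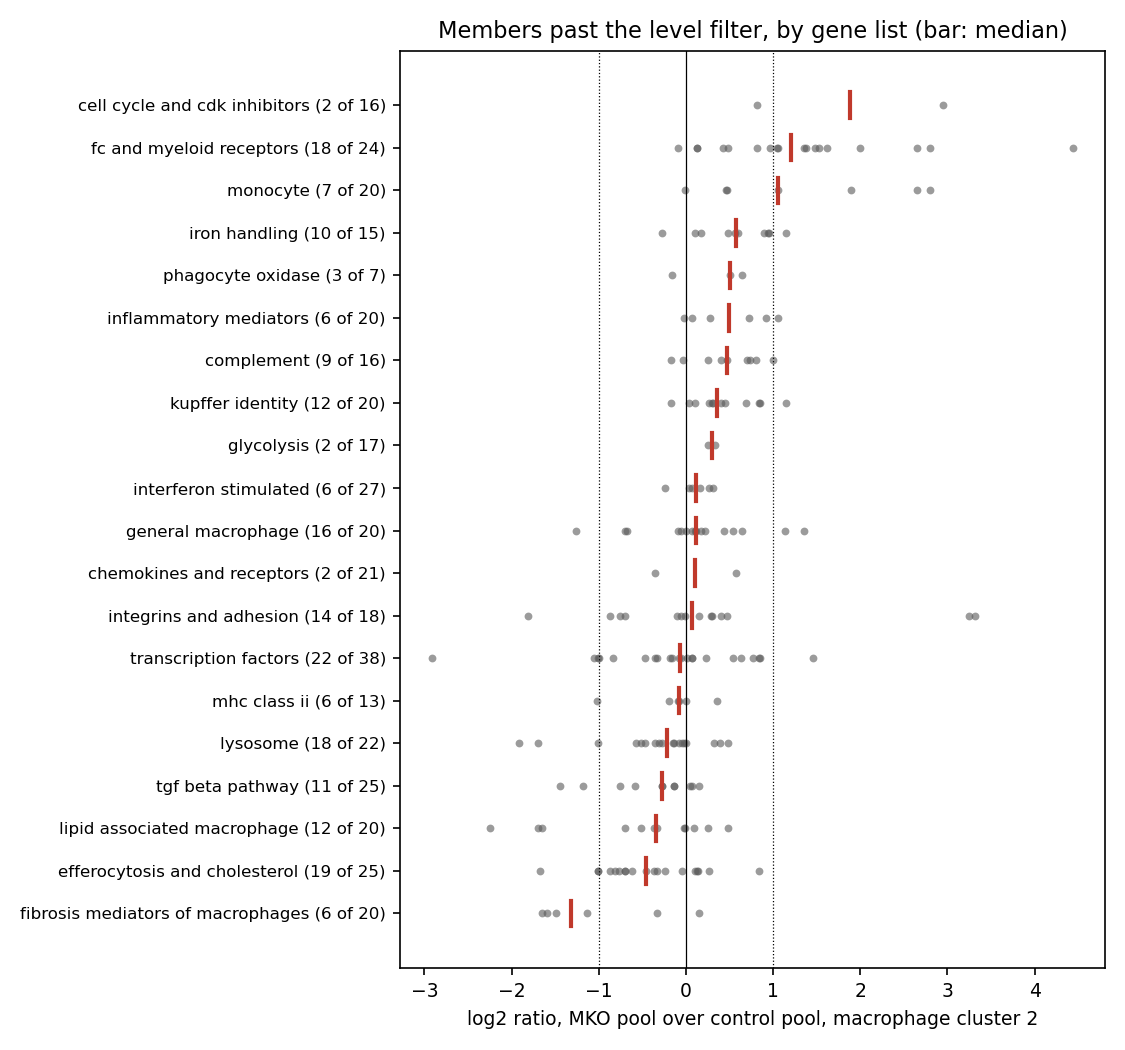
Log2 ratio of MKO over control (horizontal axis) in cluster 2 for the members of each gene list past the filter, with 1 grey point per gene, a red bar at the median and dotted lines at 2-fold; the numbers in brackets give members past the filter of members listed. The Fc and myeloid receptor points lie mostly right of 0 with a median of 1.20, and the fibrosis mediators mostly left with a median of -1.32.

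Of 38 transcription factors 22 passed the filter. Of these 22, 1 was 2-fold higher and 3 were 2-fold lower (median log2 ratio -0.07), against 5.04% and 4.72% of all genes past the filter. Pparg, a nuclear receptor of lipid metabolism, stood at 3.71 and 10.4 in the nuclei (log2 ratio 1.45). Whole-liver Pparg overlapped between genotypes, at 220, 264 and 364 in control libraries and 294, 454 and 239.8 in the MKO ones (log2 fold change 0.20, limma adjusted p = 0.831). Other clusters differed in both directions. Pparg stood at 1.64 and 6.78 in cluster 10, at 1.42 and 0.672 in cluster 0, and below the filter at 1.02 and 0.229 in cluster 3. The factors 2-fold lower in cluster 2 were Mef2c, Tcf4 (5.19 and 2.42) and Mitf. Zeb2, a repressor that maintains macrophage identity (50.2 and 52.8), and Maf (6.15 and 6.47) differed little. Tcf7l2, a Wnt effector outside this list, stood at 14 and 33.7 and did not pass the bulk test (log2 fold change 0.46, adjusted p = 0.182).

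Complement and iron genes were higher in the MKO nuclei in most cases. Of 16 complement genes 11 were higher and 5 lower, and of 9 past the filter none reached 2-fold (median log2 ratio 0.47). The C1q chains C1qa, C1qb and C1qc stood at 3.29 and 5.43, 3.08 and 5.22, and 2.94 and 5.22. All 3 rose in bulk (log2 fold changes from 1.45 to 1.56), and each lost its call without MKO 2 or MKO 3, C1qb and C1qc also without control 2 (limma adjusted p up to 0.104). Of 15 iron genes 11 were higher and 4 lower, with the sum at 35.7 and 50.7 and a median of 0.58 over 10 past the filter. Of these 10, 5 passed through the MKO pool alone and 1 through the control pool alone, so this median leans to higher genes. Without the filter the median of the 15 was 0.48. The iron sum differed 1.42-fold and the hepatocyte marker sum of the same columns 1.44-fold, and of all clusters the iron sum was highest in cluster 1. The list holds Trf, transferrin, and Cp, ceruloplasmin, which hepatocytes secrete (6.27 and 8.80, and 1.04 and 2.14), and the part of hepatocyte RNA in the iron values was not tested. The ferritin genes Fth1 (3.81 and 7.44) and Ftl1 (6.55 and 9.97) were among them, and so was the iron transporter Slc11a1 (1.37 and 2.66). Of these only Slc11a1 rose in bulk (2.18, adjusted p = 0.0073), while Fth1 and Ftl1 had log2 fold changes of -0.15 and -0.09 and did not pass the test.

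Among members past the filter, the antigen presentation, interferon and inflammatory lists each had at most 1 past 2-fold between the nucleus columns. Over all genes past the filter 5.04% were 2-fold higher and 4.72% lower. Of 6 MHC class II genes past the filter 1 was 2-fold lower, Ciita, the transactivator of the class (1.55 and 0.69). The chains H2-Aa (4.41 and 3.85) and H2-Ab1 (4.14 and 3.88) were near equal. In bulk 7 of 12 class II genes rose, but 1 without control 3 or MKO 3, 2 without MKO 2, 3 without control 2 and 4 without control 1. Of 6 interferon-stimulated genes past the filter none reached 2-fold in either direction, and 10 of 27 rose in bulk (4 without MKO 2 or MKO 3 and 5 without control 2). Below the filter Ifit1bl1 (0.0283 and 0.923) and Ifit3 (0.127 and 0.437) had nucleus log2 ratios of 2.63 and 1.10. Of all 25 interferon-stimulated genes in the nucleus columns 16 were higher and 9 lower. Of 6 inflammatory mediators past the filter 1 was 2-fold higher, Nfkbiz, a nuclear regulator of NF-kappa B (1.67 and 3.63). Il1b, an inflammatory cytokine, stood at 2.72 and 2.69. In bulk it was read at 65.1, 66.1 and 54.2 for the 3 controls, against 212, 154 and 403 for the 3 MKO libraries (1.92 ± 0.32, limma adjusted p = 0.0148), a call lost without control 2 or control 3 (up to 0.0567). Chemokine genes were mostly too low to compare, with 2 of 21 past the filter. Of 7 oxidase genes 3 passed the filter, none at 2-fold, and 5 rose in bulk, among them Cybb, the catalytic subunit (6.03 and 9.48 in the nuclei, bulk 1.78, adjusted p = 0.00426). Proliferation genes were near 0 in both columns, with Mki67 at 0.0759 and 0.0765 and Top2a at 0.0203 and 0.0602.

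Genes of other cell types were measurable in both columns. Hepatocyte genes had the largest such sum, 75.6 in the control and 109 in the MKO column (15 genes, 1.44-fold), and the same sum differed 0.999-fold to 1.94-fold in the other 12 clusters. None of the 10 hepatocyte genes past the filter reached 2-fold, and leaving hepatocyte genes out gave 98 higher and 90 lower genes. Markers of B and plasma cells summed to 5.97 and 7.79, of which Bank1 made 5.02 and 6.48, and markers of dendritic cells to 5.37 and 7.41, of which Wdfy4 made 3.22 and 4.14. T and NK, stellate, bile duct, mesothelial and neutrophil markers each summed to at most 2.18 in either column. Ribosomal protein genes (78) summed to 72.1 and 119.8, 1.66-fold, and mitochondrial genes (13) to 82.4 and 89.5. The MKO column listed 18439 genes above 0 and the control column 16533, and the smallest value above 0 was 0.000515 against 0.00137. The part of these differences in the gene ratios was not tested.

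Some differences of gene length and place accompanied the gene ratios. The genes 2-fold higher spanned a median of 50.4 kb in the annotation and the genes 2-fold lower 150 kb, against 74.9 kb for the genes past the filter. Of the 96 higher genes 44 (45.8%) had their highest mean level of all clusters in cluster 2, as did 21 of the 90 lower genes (23.3%) and 28.1% of all past the filter. The part of gene length in the ratios was not tested.

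Cluster 10 also carried macrophage markers, and several of the genes above differed in the same direction there. Of the markers Clec4f stood at 1.89 and 4.33 in cluster 10, Adgre1 at 2.77 and 6.78 and Vsig4 at 2.28 and 2.35. The part of a differing share of macrophage nuclei in the levels of cluster 10 was not tested. There Negr1 stood at 5.45 and 19.9, Fcrl5 at 0.226 and 3.38, Fcgr4 at 0.326 and 3.22, Klra2 at 0.921 and 7.46, and Fgf13 at 8.11 and 0.672. Tgfbr1 stood at 6.88 and 4.15 in that cluster, a log2 ratio of -0.70. Gpnmb was lower there too, below the filter (1.26 and 0.0856), while Igf1 was near equal (2.30 and 2.39). Both clusters come from the same 2 pools, so cluster 10 is not an independent sample. By the same 2-fold count, 11.1% of genes were higher and 10.9% lower in cluster 10, and in the other 11 clusters the share higher lay between 1.67% and 6.9% and the share lower between 0.334% and 12.1%, the last in cluster 12. These shares were not tested against each other.

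The cluster 2 genes that differed in the nuclei were then read in the whole-liver test, which has its own replicates. Of the 96 genes 2-fold higher in MKO nuclei 87 were tested in bulk, 46 rose (52.9%) and none fell, with a median log2 fold change of 1.58. edgeR and DESeq2 called 48 and 49 of the 87 higher and none lower, none was lower at an unadjusted p under 0.05, and leaving out 1 library gave 29 to 45 higher, with 29 without MKO 3 and 30 without MKO 2. Of the 90 genes 2-fold lower 87 were tested, 3 rose and 1 fell, and the median was -0.04. DESeq2 called 3 higher and 4 lower, 9 were higher and 8 lower at an unadjusted p under 0.05, and leaving out 1 library gave 0 to 2 higher and 0 to 1 lower, with 2 higher without MKO 1 and 0 without any other library. The count lower was 1 without control 3 or MKO 3 and 0 without any other library. Of the 1704 tested genes past the filter without a 2-fold difference 191 rose (11.2%), against 2.96% over all genes. Leaving out control 2, MKO 2 or MKO 3 took the 452 bulk genes that rose to 238, 175 or 181.

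Genes enriched in cluster 2 depended on whether cluster 10 was among the comparators. Only Mmp12, Atp6v0d2, Gpnmb and Lyz2 had a mean level over both pools at least 4-fold above each of the 12 other clusters. All 4 were 2-fold lower in MKO nuclei and none was called in bulk with limma or edgeR. DESeq2 called 2 lower, and 2 were lower at an unadjusted p under 0.05. In the MKO column Mmp12 (1.03), Gpnmb (1.18) and Atp6v0d2 (0.730) lay below the level filter. Lyz2 stood there at 2.65, against 1.13 in cluster 10. The general macrophage genes summed to 32.6 (control) and 59.9 (MKO) in cluster 10, and to 91.2 and 100.2 in cluster 2. The rule therefore leaned to genes high in the control pool, and the shared direction of the 4 is not a separate result. Without cluster 10 among the comparators, an alternative chosen after the data were seen, 90 genes were enriched 4-fold. Of 88 tested in bulk 53 rose (60.2%), with a median log2 fold change of 1.56. The share that rose was 2.96% over all genes and 12.8% over those past the nucleus filter. None fell with limma or edgeR, and 2 were lower with DESeq2 and at an unadjusted p under 0.05. Leaving out control 2, MKO 2 or MKO 3 gave 31, 24 or 27 that rose. In the nuclei 17 of the 90 were 2-fold higher and 8 lower, against 5.04% and 4.72% of all genes past the filter. Lilr4b, an immunoglobulin-like receptor, is an example of a gene that rose in bulk (log2 fold change 2.17, limma adjusted p = 0.00345) at near-equal nucleus levels (7.07 and 7.69). Reads may be split uncertainly between Lilr4b and Lilrb4a. Axl, a receptor tyrosine kinase that binds dying cells, rose in bulk (1.21, adjusted p = 0.00535) and stood at 3.26 and 2.56 in the nuclei.

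**Figure D4:**
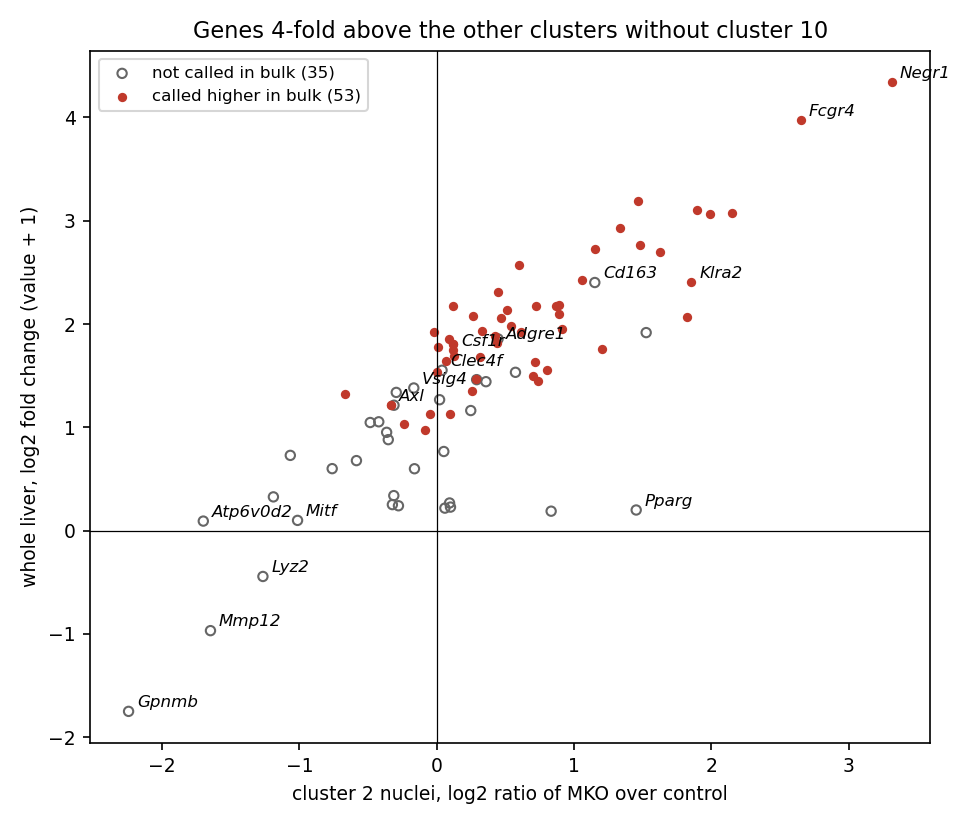
For the 88 genes at least 4-fold above every other cluster except cluster 10, the nucleus log2 ratio in cluster 2 (horizontal axis) and the whole-liver log2 fold change (vertical axis), each MKO over control; 53 filled points were called higher by limma and 35 open points were not called. Negr1 and Fcgr4 are high on both axes, Gpnmb and Mmp12 low on both, and Csf1r and Adgre1 are higher in whole liver at nucleus levels within 2-fold.

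**Figure D5:**
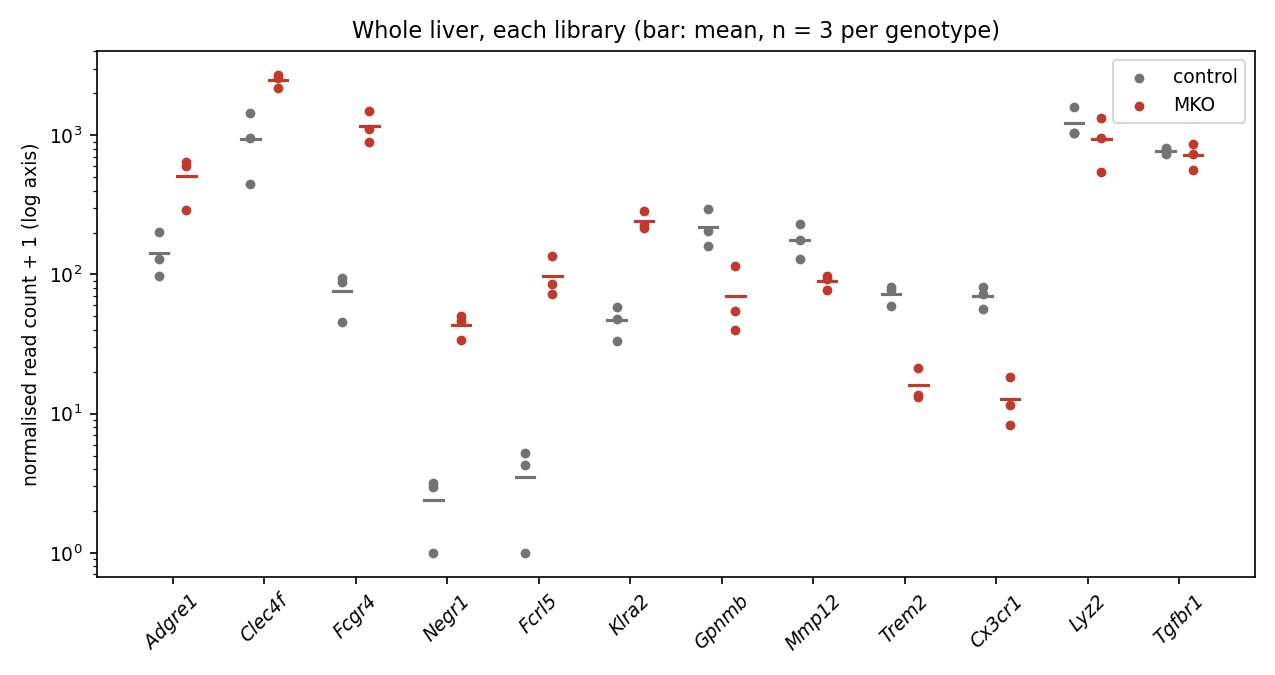
Normalised read count plus 1 (vertical axis, log scale) of 12 macrophage genes in each whole-liver library, grey for 3 control and red for 3 MKO libraries, with a bar at each mean. The genotypes overlap for Lyz2 and Tgfbr1. The 12 genes were chosen with earlier results of these data known, so the number without overlap is not a result.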

How the data were processed

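Nuclei of 1 control and 1 MKO pool (3 livers each) and bulk RNA of 3 control and 3 MKO libraries were analysed. Per the submitters' processing notes, reads were processed against mm10 with tools that include STAR, RSEM 1.3.3, Cell Ranger, Seurat 4.0.1, FastQC and DESeq2; no settings are stated. For nuclei the authors deposited a signal, a mean per gene, cluster and pool in columns that each sum to 10000; the sources used here do not state the number of nuclei or how doublets were treated. For bulk RNA the authors deposited a signal as well, gene counts divided by a size factor per library. Dividing by what 1 read is worth gave whole reads (within 0.01) for 100% of values, 17448117 to 23986319 per library. The authors' deposited log2 fold changes and p-values were used only for a count: 880 genes had an adjusted p under 0.05 in the authors' deposited table.

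Members, gene lists (31) and tests were chosen with earlier results of these data known. Nucleus log2 ratios used genes whose larger level reached the 90th percentile (1.44) and a pseudocount of 1/10 of it, with a 2-fold count and no test. Bulk libraries were tested with limma 3.58.1 (R 4.3.3, limma-trend, log2(value + 1), genotype as the only term, mean of at least 1, Benjamini-Hochberg adjusted p under 0.05) over 15249 of 15283 genes. Such fold changes understate the change of low genes. The recovered reads were also tested with edgeR 4.0.16 and DESeq2 1.42.0, which called 468 and 634 genes higher and 14 and 50 lower. The fit was tested on simulated data. No library was a duplicate of another, with a chi-square per degree of freedom of at least 28.1 in each pair.

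Named genes followed a rule: Tgfbr1 and the 5 markers, the 15 highest and 15 lowest nucleus ratios with official-looking symbols, 2 members by level and 2 by ratio of each macrophage or pathway list, the 12 most enriched genes and the highest member of each list for another cell type. Those just inside and outside the 2-fold threshold were named for that place. Other list members, and Tcf7l2, were named after their values were seen. Gene positions are from GENCODE vM21 and promoters from RefSeq, matched by symbol with 1 promoter per gene; 1500 of 1905 genes past the filter had one, and promoters on chromosome 18 were left out. Some results are not reported here.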

Additional observations from a re-analysis of the deposited data

Results flagged for a closer look

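For 3 genes taken by the naming rule and past the level filter in both clusters, the nucleus ratio in cluster 2 and that in another cluster lay past 2-fold in opposite directions. Each rests on 1 pool per genotype, so none of these differences was tested. Ccser1 had a log2 ratio of 3.47 in cluster 2 and of -1.24 in cluster 12, where its level was 3.02 in control and 1.16 in MKO nuclei. Sox5 had a log2 ratio of 2.46 in cluster 2 and of -1.51 in cluster 7 (1.75 and 0.511). Colec12, a scavenger receptor of the collectin family, had a log2 ratio of -2.22 in cluster 2 and of 1.57 in cluster 12 (0.888 and 3.03).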

How the results depend on the processing

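In cluster 2 the counts of genes 2-fold higher and lower were 155 and 179 with the filter at the 80th percentile and 49 and 54 at the 95th, against 96 and 90. With the filter on the mean of both pools, added after the data were seen, the higher count was 59. Of 186 genes past 2-fold 51.6% were higher, and the alternatives gave 45.7% to 57.0%, the last with ratios centred on their median. In bulk, leaving out 1 library gave 175 to 410 higher and 5 to 31 lower genes, quantile normalisation 7 lower genes and DESeq2 50 lower. For the genes enriched 4-fold in cluster 2, the count lower in bulk was 0, but 1 with a pseudocount of 4 or TMM scaling, 2 with DESeq2, and 0 to 1 with 1 library left out. The count higher was 31 with 2-fold enrichment and 53 without cluster 10. The replicate numbers did not pair the samples (correlations of same-numbered deviations 0.06, -0.03 and -0.11, and not every library correlated best with its own number). The replicate block gave 391 higher and 17 lower genes, and 1 enriched gene lower. Among single genes no direction was reversed. Bulk calls kept their side of the threshold in 2207 of 2354 refits, with 113 lost and 34 gained, and nucleus ratios moved by over 1.5-fold in 6 of 853. The depth of the nucleus columns is unknown, so low levels there carry an unknown counting error.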
